A study of Schizosaccharomyces pombe with 4 samples.

Results

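The cytosolic ribosomal protein genes of fission yeast (Schizosaccharomyces pombe) were taken from the authors' annotated expression table as every nuclear gene whose symbol is rpl or rps followed by digits only. This gave 129 of the 7092 genes in the table, 74 of the large ribosomal subunit (rpl) and 55 of the small one (rps). They encode 73 different proteins, 42 of the large and 31 of the small subunit. Of these proteins, 20 come from 1 gene and 53 from 2 or 3 near-copies, called paralogues, which together make up 109 of the genes.

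RNA was sequenced in 4 libraries, 2 labelled as carrying the plasmid pREP41-Atf1 and 2 labelled as carrying the empty plasmid pREP41. Both groups share the genotype h90 ade6 leu1 ura4 with pcr1::ura4+, so the gene for Pcr1, the usual dimer partner of the stress transcription factor Atf1, is replaced in the vector-labelled cells too. Per the labels' protocols all cultures grew at 30 °C, overnight with 20 µM thiamine, which keeps the nmt1-type promoter of pREP41 off, and then for 24 h without it. Trizol was used for the RNA, and libraries were made with a stranded mRNA kit, and whether the 2 libraries of each group are separate cultures is left unstated in the labels.

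Each ribosome contains 1 copy of most ribosomal proteins, so a growing cell needs them in similar amounts, and their messenger RNAs are among the most abundant of any yeast. In fission yeast most of these genes carry a short promoter element called HomolD, which takes the place of a TATA box and is bound by Rrn7, and many carry a second element called HomolE. Paralogues of a protein are often nearly identical in sequence but sit at separate places, often on different chromosomes, with their own promoters. The TORC1 kinase complex ties expression of the set to nutrient supply, and general stress lowers it.

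The values are the authors' pooled FPKM (fragments per kilobase of transcript, scaled to sequencing depth), with 1 value per group and gene, so no value here has an SD or an n. A difference is the log2(FPKM + 1) of the Atf1-labelled group minus that of the vector-labelled group, and a call is a q-value under 0.05 in the authors' deposited table. A gene counts as tested where the table gives it status OK and its mean over both groups reaches 1 FPKM, which holds for 6219 genes and for every one of the 129. The FPKM of all genes summed to 1321551 under the Atf1 label and 835070 under the vector label, and the authors' scaling between groups was not given in the sources used here. Genes that should mark the groups did not follow their labels. atf1 stood at 54.4 FPKM under the Atf1 label and 60.9 FPKM under the vector label, and pcr1, labelled as deleted in both, at 66.4 FPKM under the Atf1 label and 35.8 FPKM under the vector label. ura4, the marker that should sit at pcr1 in both groups, was listed at 0 FPKM under the Atf1 label and stood at 125 FPKM under the vector label. For this reason the groups are called by their labels throughout. Structural RNAs, which mostly lack poly(A) tails, had a median difference of 2.49 over 54 tested genes, with 48 above 0. Their part in the results below was not tested.

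As deposited, ribosomal protein messages had somewhat higher FPKM under the Atf1 label but made up a smaller part of the total. The median gene stood at 2955 FPKM under the Atf1 label and 2228 FPKM under the vector label. The median difference was 0.35, and 95 of the 129 genes had a difference above 0, while the median over all 6219 tested genes was -0.11, with 44.6% above 0. Other abundant messages were mostly above 0 too. Among 425 other protein-coding genes whose mean reached 200 FPKM, medians by class of coding length ran from 0.28 to 0.91. Above 0 were 32 of 41 genes at up to 300 bases, 43 of 57 at up to 450, 34 of 46 at up to 600 and 237 of 281 beyond. The 129 genes together held 32.7% of all FPKM under the Atf1 label and 43.4% under the vector label. Their summed FPKM was 431945 under the Atf1 label and 362710 under the vector label, and that of all other genes was 889607 under the Atf1 label and 472360 under the vector label. Scaling both groups to equal totals gave a median difference of -0.31 with 35 genes above 0, while the median over all tested genes was -0.73. Quantile normalization gave -0.28 with 32 above 0, while the median over all tested genes was -0.18. The sign of the set's difference thus depends on the scaling. With equal totals the set stayed above the median of all tested genes, and with quantile normalization it lay below that median. In bulk RNA, a difference in the share of growing cells, in these messages per cell or in the other RNAs cannot be told apart. The cause of the smaller share was not tested.

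No ribosomal protein gene was called in the authors' deposited table, in which 1.95% of all tested genes were called in either direction. The call was for a higher level under the Atf1 label in 0 of the 129 genes, against 1.82% of all tested genes, and for a lower one in 0, against 0.129%. At an unadjusted p under 0.05 from Cuffdiff in that table there were 3 of the 129 genes, against 10.8% of all tested genes. In the authors' deposited table, Cuffdiff gave rps1401 a p of 0.0101 and a q of 0.315, rps1801 a p of 0.0246 and a q of 0.490, and rpl3402 a p of 0.00855 and a q of 0.289. A difference of at least 1.5-fold in favour of the Atf1 label was seen in 38 of the 129 genes, against 24% of all tested genes, and one in favour of the vector label in 9, against 28.8% of all tested genes. This balance reversed with equal totals, at 4 and 42 genes, and with quantile normalization, at 5 and 37 genes. The shares of all tested genes past 1.5-fold were not counted under these scalings, so these counts have no background beside them. The p-values rest on at most 2 libraries per group.

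The messages stayed near the top of the list of levels in both groups. Ranked among all tested genes, the median ribosomal protein gene stood at the percentile 98.2 under the Atf1 label and 98.5 under the vector label. Of the 200 genes with the highest FPKM, 103 were ribosomal protein genes under the Atf1 label and 116 under the vector label. A lower place under the Atf1 label than under the vector label was held by 98 of the 129 genes and a higher place by 31. These ranks do not depend on a scaling factor between the groups.

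**Figure D1:**
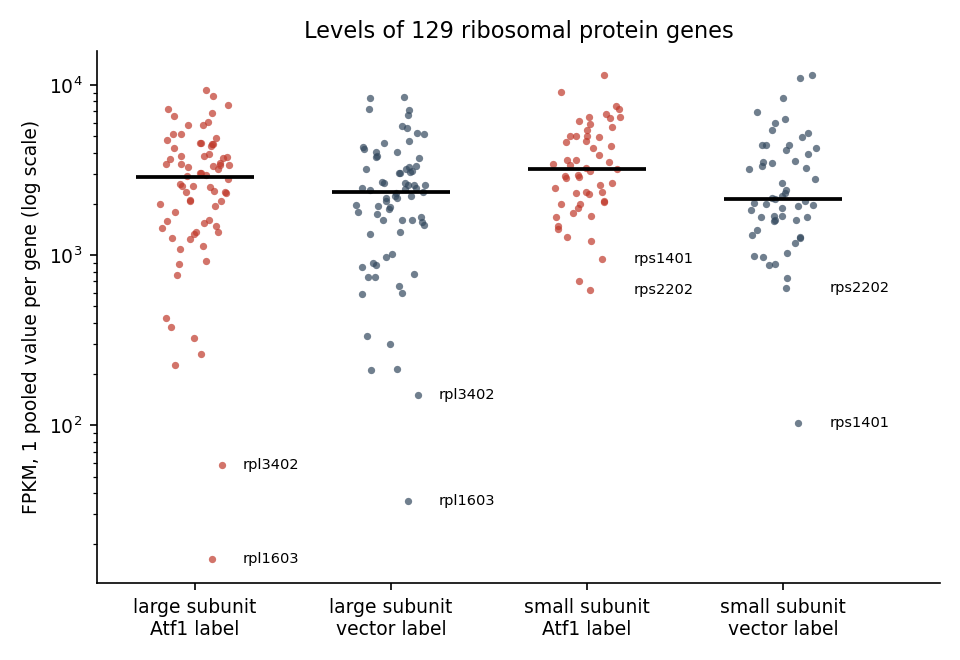
FPKM on a log axis, 1 point per gene and group, for the 74 large-subunit genes (left pair of columns) and the 55 small-subunit genes (right pair), under the Atf1 label in red and the vector label in dark blue. Lines mark medians (large subunit 2862 FPKM under the Atf1 label and 2339 FPKM under the vector label, small subunit 3193 FPKM under the Atf1 label and 2136 FPKM under the vector label), on the authors' scale, which other scalings shift, and a few genes, rpl1603 and rpl3402 among them, lie far under the rest in both groups.

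Small-subunit genes had a greater median difference than large-subunit genes. The median difference was 0.45 over the 55 small-subunit genes, of which 44 were above 0, and 0.30 over the 74 large-subunit genes, of which 51 were above 0. With equal totals the medians were -0.22 and -0.36, with quantile normalization -0.17 and -0.40, and with median-of-ratios scaling 0.56 and 0.42, so the small subunit kept the greater median while the sign flipped under the equal-totals and quantile scalings. On the authors' scale, all 6 genes at least 2-fold higher under the Atf1 label encode small-subunit proteins, and all 3 at least 2-fold lower encode large-subunit proteins. The ratio of the median large-subunit level to the median small-subunit level was 0.896 under the Atf1 label and 1.10 under the vector label. Over the genes that do not share their Cuffdiff locus with another gene, 48 of the large and 28 of the small subunit, this ratio was 0.744 under the Atf1 label and 0.961 under the vector label. No test of the difference between subunits could be made with 1 value per group.

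Among the large-subunit genes, the 4 with the greatest differences encode proteins L20, L5, L41 and L2. rpl2002, for protein L20, had 3435 FPKM under the Atf1 label and 1741 FPKM under the vector label, a difference of 0.98. rpl501, for L5, which carries the 5S ribosomal RNA into the ribosome, had 4563 FPKM under the Atf1 label and 2316 FPKM under the vector label, also a difference of 0.98. rpl4102 encodes L41, the smallest ribosomal protein, and had 5794 FPKM under the Atf1 label and 3045 FPKM under the vector label (0.93). rpl803 encodes L2, a protein beside the peptidyl transferase centre, and had 2808 FPKM under the Atf1 label and 1506 FPKM under the vector label (0.90). Under the equal-totals and quantile scalings these 4 differences were smaller but stayed above 0.

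At the other end of the large subunit stood rpl3402, rpl39, rpl1603 and rpl3801. rpl39, the only gene for L39, which lines the tunnel through which the new protein leaves, had 2081 FPKM under the Atf1 label and 5186 FPKM under the vector label, a difference of -1.32. Its coding sequence is 156 bases long, and its p in the authors' deposited table was 0.0791. rpl3402 had 58.7 FPKM under the Atf1 label and 151 FPKM under the vector label (-1.35), and rpl1603 had 16.4 FPKM under the Atf1 label and 35.8 FPKM under the vector label (-1.08). Both are minor copies, described with their paralogues below. rpl3801, for L38, had 1614 FPKM under the Atf1 label and 2437 FPKM under the vector label (-0.59).

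Of the small-subunit genes, rps1401 (3.19) and rps1801 (1.71) had the greatest differences, and both are described with their paralogues below. The lowest differences of the small subunit belonged to rps1202 (-0.97), rps2501, rps20 and rps27. rps27, the only gene for S27, a zinc-binding protein, had 7493 FPKM under the Atf1 label and 11437 FPKM under the vector label (-0.61). rps20, for S20 in the head of the subunit, had 5455 FPKM under the Atf1 label and 8427 FPKM under the vector label (-0.63). rps2501 had 2848 FPKM under the Atf1 label and 4430 FPKM under the vector label (-0.64), while its paralogue rps2502, the most abundant message of the set by mean level, had 11368 FPKM under the Atf1 label and 10935 FPKM under the vector label (0.06).

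The most abundant messages of the large subunit were rpl26, rpl42 and rpl4302, and those of the small subunit rps2502, rps27 and rps21. rpl26 had 9348 FPKM under the Atf1 label and 5716 FPKM under the vector label, and rpl4302 had 8632 FPKM under the Atf1 label and 7149 FPKM under the vector label. rpl42, whose protein lies at the exit site of the large subunit where cycloheximide binds, had 6521 FPKM under the Atf1 label and 8384 FPKM under the vector label. rps21 had 9057 FPKM under the Atf1 label and 6895 FPKM under the vector label.

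Summed over its genes, the median protein had 5293 FPKM under the Atf1 label and 4336 FPKM under the vector label. The sums ran between 705 and 14216 FPKM under the Atf1 label and between 637 and 15365 FPKM under the vector label. L43 and S25 had the highest sums in both groups, 13770 and 14216 FPKM under the Atf1 label, against 14375 and 15365 FPKM under the vector label. L12, which forms the base of the stalk that recruits translation factors, had the lowest sum in both groups, 705 FPKM under the Atf1 label and 637 FPKM under the vector label. Its genes rpl1201 and rpl1202 share 99.6% of their coding bases, so the authors' counting could split or drop their reads, and the values are uncertain. Next to lowest under the vector label was L3, a neighbour of the peptidyl transferase centre, at 2297 FPKM under the Atf1 label and 1374 FPKM under the vector label. The L3 genes rpl301 and rpl302 share 96.3% of their coding bases and a run of 848 identical bases. The values of L3 are therefore uncertain in the same way as those of L12.

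The median protein of the large subunit stood at 4797 FPKM under the Atf1 label and 4334 FPKM under the vector label, and that of the small subunit at 6456 FPKM under the Atf1 label and 4361 FPKM under the vector label. The ratio of large to small over these medians was 0.743 under the Atf1 label and 0.994 under the vector label. Taken over the summed FPKM of all genes of each subunit, the ratio differed less between the groups. It was 1.11 under the Atf1 label and 1.18 under the vector label. A ratio within a group does not depend on a scaling factor between the groups. Quantile normalization, which is not such a factor, moved the ratio of gene medians a little. It gave 0.870 under the Atf1 label and 1.085 under the vector label, against 0.896 and 1.095 as deposited. Of the 73 proteins, 57 had a difference above 0 on the authors' scale and 16 one below 0, and 11 of these 16 belong to the large subunit.

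Differences went with the length of the coding sequence. The 34 genes with more than 600 coding bases had a median difference of 0.64, and 33 of them were above 0, while the 21 genes with up to 300 bases had a median of 0.03 and 11 above 0. Between these, the 44 genes of more than 300 and up to 450 bases had a median of 0.11, and the 30 genes of more than 450 and up to 600 bases one of 0.43. Of the 16 proteins with a difference below 0, 15 have coding sequences of up to 450 bases, the exception being L9, as do 24 of the 57 proteins with a difference above 0. Spearman's rho between difference and coding length across the genes was 0.50 (n = 129), 0.51 within the large subunit (n = 74) and 0.53 within the small subunit (n = 55). These are descriptions across genes of the same libraries, and genes are not independent replicates.

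The relation was also present without shared loci and without paralogues. Over the 76 genes alone in their locus rho was 0.64, and over the 20 single-gene members it was 0.75. In every length class above 300 bases, small-subunit genes had the greater median, 0.31 against -0.003 at up to 450 bases, 0.67 against 0.34 at up to 600, and 0.70 against 0.57 beyond. At up to 300 bases the order was the other way, with -0.11 for 9 small-subunit genes (4 above 0) and 0.05 for 12 large-subunit genes (7 above 0). Longer genes had lower levels in both groups, with a rho between FPKM and coding length of -0.23 under the Atf1 label and -0.46 under the vector label over the 129 genes. A trend with length was not found across all other tested protein-coding genes, where rho was -0.07 (n = 4836). Among 425 other protein-coding genes whose mean reached 200 FPKM it was 0.22, and their medians ran from 0.30 at up to 300 bases to 0.91 above 600 bases. Differences in RNA length, fragment length or RNA quality between libraries were not tested, since the files hold no reads.

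**Figure D2:**
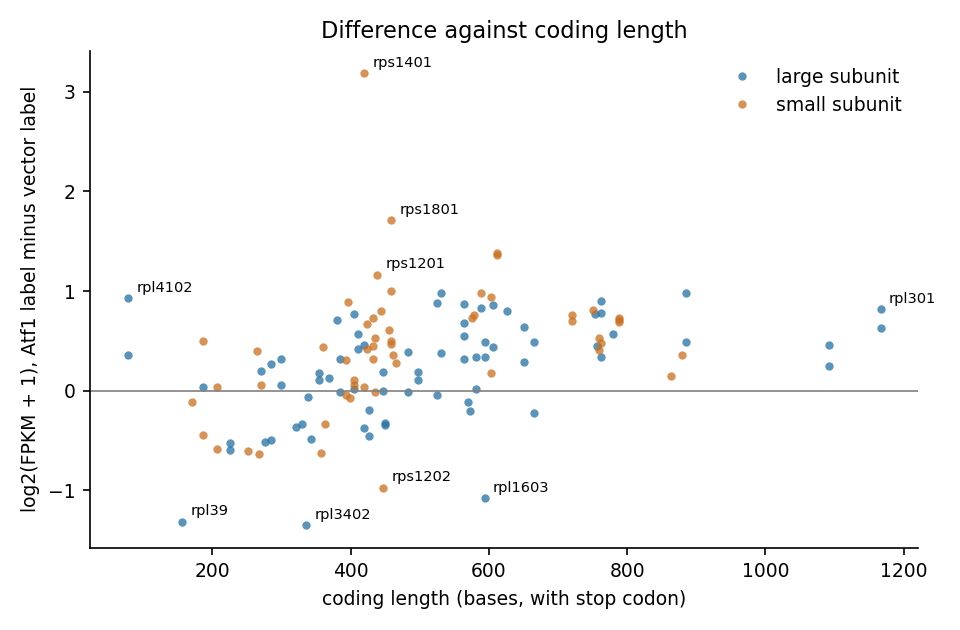
Difference in log2(FPKM + 1), Atf1 label minus vector label, against coding length in bases for the 74 large-subunit genes (blue) and 55 small-subunit genes (orange), 1 point per gene. Genes over 600 bases lie above 0 in 33 of 34 cases on the authors' scale, while shorter genes spread on both sides; equal totals would move every point down by about the same amount and leave the slope.

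Genes without introns were also longer than genes with them. The 63 genes without introns had a median difference of 0.41 and a median coding length of 573 bases, and the 66 with introns 0.28 and 405 bases. By chromosome, the median difference was 0.44 over 58 genes on chromosome I, 0.35 over 47 on chromosome II and 0.08 over 24 on chromosome III. The median coding length was 459, 447 and 448.5 bases on chromosomes I, II and III. The other tested protein-coding genes had medians of -0.26, -0.23 and -0.16 on the same 3 chromosomes, so the low value on chromosome III was not shared by its other genes. No test was made of these differences.

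Paralogues of a protein mostly kept their order between the groups. In 48 of the 53 proteins with several genes, the same gene was the highest with either label. The highest and lowest gene of a protein differed by a median of 0.92 on the log2 scale under the Atf1 label and 0.97 under the vector label, which is 1.89-fold and 1.96-fold. The spread was more than 4-fold in 8 proteins under each label, though not the same 8. L10 and S26 passed 4-fold only under the Atf1 label, and L2 and S14 only under the vector label. The spread was less than 2-fold in 29 proteins under the Atf1 label and 27 under the vector label. The log2 ratio of the highest over the lowest gene moved by a median of 0.36 between the groups without regard to sign, and by 1 or more in 5 proteins.

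The leading gene differed in L20, L23, L43, S12 and S16. For L20, rpl2002 led under the Atf1 label (3435 FPKM, against 3368 for rpl2001), and rpl2001 led under the vector label (2590 FPKM, against 1741 for rpl2002). For L43, rpl4302 led under the Atf1 label (8632 FPKM, against 5139 for rpl4301), and rpl4301 under the vector label (7226 FPKM, against 7149 for rpl4302). rpl2301 and rpl2302 had 2563 and 2366 FPKM under the Atf1 label and 1863 and 3060 FPKM under the vector label. rps1601 and rps1602 had 2482 and 2569 FPKM under the Atf1 label and 1852 and 1615 FPKM under the vector label. In L20 and S16 under the Atf1 label and in L43 under the vector label the 2 copies were within a few percent of each other. Without a value per library, a change of lead cannot be told from noise in any of these proteins, L23 and S12 included.

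**Figure D3:**
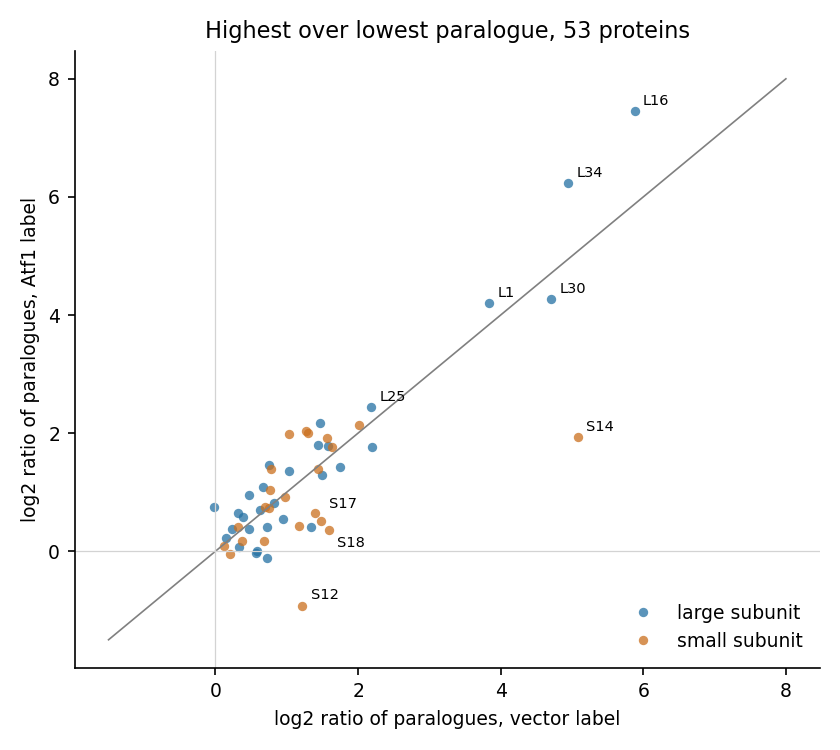
Log2 ratio of FPKM + 1 between the highest and lowest paralogue (ranked by the mean of both groups), under the Atf1 label (vertical axis) against the vector label (horizontal axis), 1 point per protein for 53 proteins. Points on the grey line have the same ratio in both groups; L16 and L34 lie above it at the widest ratios, and S14, S12 and S18 lie under it.

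The greatest shift was in S14, a protein of the platform of the small subunit next to the path of the messenger RNA. rps1401, the minor copy, had 954 FPKM under the Atf1 label and 104 FPKM under the vector label, a 9.10-fold difference, while rps1402 had 3627 FPKM under the Atf1 label and 3543 FPKM under the vector label. The share of S14 messages from rps1402 was thus 79.2% under the Atf1 label and 97.2% under the vector label. Both genes encode the same protein, share 93.6% of coding bases and have 1 run of 101 identical bases, so some reads cannot be assigned to either. rps1401 also shares its Cuffdiff locus with aar2, with 51.1 FPKM under the Atf1 label and 46.3 FPKM under the vector label, and pol1, with 1.83 FPKM under the Atf1 label and 4.86 FPKM under the vector label. Its difference was 2.53 with equal totals, 2.52 with quantile normalization and 3.30 with median-of-ratios scaling.

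S18, which contacts the large subunit from the head, showed a smaller shift of the same kind. rps1801 had 3880 FPKM under the Atf1 label and 1186 FPKM under the vector label (3.27-fold), and rps1802 had 4963 FPKM under the Atf1 label and 3576 FPKM under the vector label. The share from rps1802 was 56.1% under the Atf1 label and 75.1% under the vector label. In S17, the minor copy rps1701 had 2955 FPKM under the Atf1 label and 1595 FPKM under the vector label, beside 4232 FPKM under the Atf1 label and 4442 FPKM under the vector label for rps1702. In these 3 proteins of the small subunit the minor copy stood closer to the major one under the Atf1 label. Both rps1801 and rps1701 share their Cuffdiff locus with other genes, which makes their values uncertain, while rps1802 and rps1702 are alone in theirs.

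In S12 the copies changed places while their sum stayed close. rps1201 had 5012 FPKM under the Atf1 label and 2234 FPKM under the vector label, and rps1202 had 2645 FPKM under the Atf1 label and 5196 FPKM under the vector label. The sum of both was 7657 FPKM under the Atf1 label and 7429 FPKM under the vector label, and rps1202 made up 34.5% of it under the Atf1 label and 69.9% under the vector label. The S12 copies share 74.9% of coding bases and 79.5% of residues, against a median of 88.0% of coding bases over 59 pairs. The assignment of reads between them was not tested. While rps1201 is alone in its Cuffdiff locus, rps1202 shares its own with other genes, which makes its values uncertain. Neither gene passed the test, with p-values of 0.200 for rps1201 and 0.240 for rps1202 in the authors' deposited table.

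L16 and L34 went the other way, with minor copies still lower under the Atf1 label. rpl1603 is the lowest of all 129 genes in both groups, at 16.4 FPKM under the Atf1 label and 35.8 FPKM under the vector label. Its paralogues rpl1602 and rpl1601 had 3043 and 1238 FPKM under the Atf1 label and 2164 and 980 FPKM under the vector label. The log2 ratio of rpl1602 over rpl1603 was 7.45 under the Atf1 label and 5.88 under the vector label. rpl3402 had 58.7 FPKM under the Atf1 label and 151 FPKM under the vector label beside 4475 FPKM under the Atf1 label and 4694 FPKM under the vector label for rpl3401, so that rpl3401 gave 98.7% of L34 messages under the Atf1 label and 96.9% under the vector label. rpl3402 is alone in its locus, and apl1, which shares the locus of rpl1603, had 9.65 FPKM under the Atf1 label and 17.1 FPKM under the vector label.

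Other proteins with a very minor copy kept their ratio more closely. rpl102 had 263 FPKM under the Atf1 label and 215 FPKM under the vector label, beside 4843 FPKM under the Atf1 label and 3100 FPKM under the vector label for rpl101, which together encode L1 of the mobile stalk at the exit site. rpl3002 had 228 FPKM under the Atf1 label and 212 FPKM under the vector label, beside 4397 FPKM under the Atf1 label and 5543 FPKM under the vector label for rpl3001. rpl2502 had 430 FPKM under the Atf1 label and 590 FPKM under the vector label, beside 2336 FPKM under the Atf1 label and 2678 FPKM under the vector label for rpl2501.

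**Figure D4:**
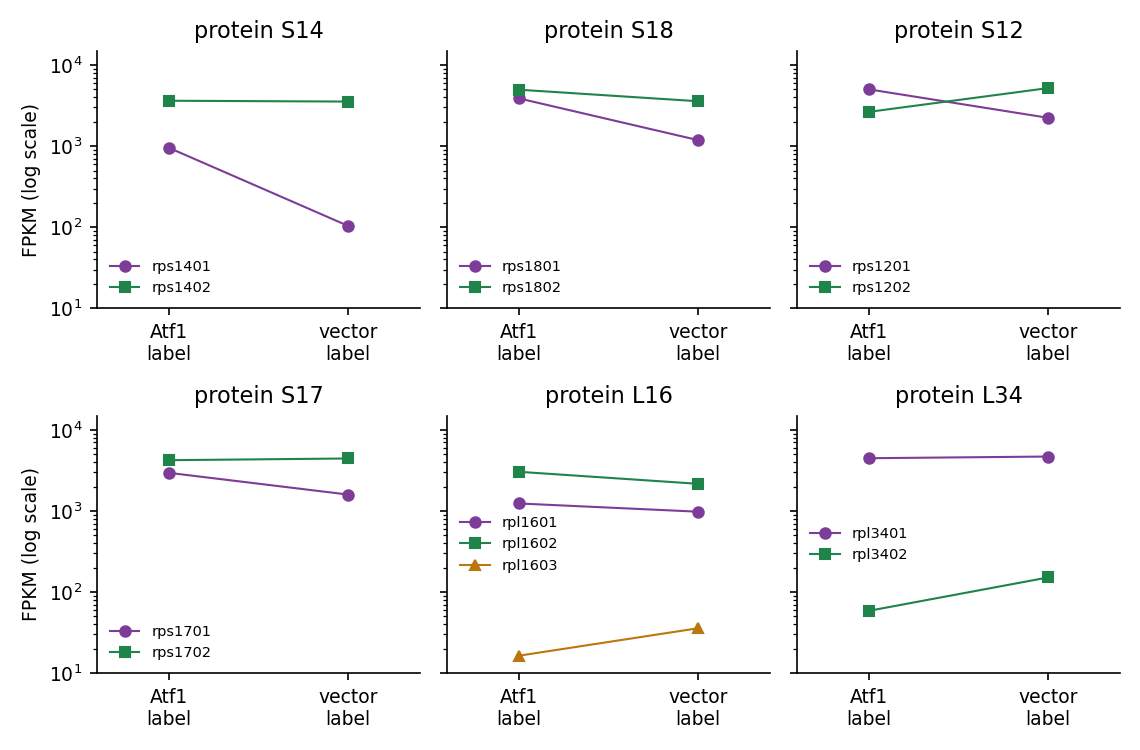
FPKM (log axis) of each paralogue under the Atf1 label (left) and the vector label (right) for the 6 proteins whose ratio of copies changed most, 1 line per gene, on the authors' scale. The minor copies rps1401, rps1801 and rps1701 come closer to the major copy under the Atf1 label, rps1201 and rps1202 cross, and rpl1603 and rpl3402 lie further below their paralogues under the Atf1 label.

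To show what stands before the copies that shifted, the 200 bases before the annotated transcript start of 10 of these genes are given 5′ to 3′ on the gene's own strand, from the RefSeq assembly ASM294v3. Capitals mark HomolD (CAGTCACA, or its first 7 letters CAGTCAC where the eighth differs), HomolE (ACCCT, 2 times in tandem) or the core of the element bound by Atf1 and Pcr1 (TGACGT), on either strand.
rps1401 (chrI:3436044-3436243, plus strand): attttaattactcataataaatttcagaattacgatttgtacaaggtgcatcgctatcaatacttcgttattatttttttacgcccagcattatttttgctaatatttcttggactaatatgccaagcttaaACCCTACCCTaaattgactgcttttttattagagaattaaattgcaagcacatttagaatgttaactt
rps1402 (chrII:1792163-1792362, plus strand): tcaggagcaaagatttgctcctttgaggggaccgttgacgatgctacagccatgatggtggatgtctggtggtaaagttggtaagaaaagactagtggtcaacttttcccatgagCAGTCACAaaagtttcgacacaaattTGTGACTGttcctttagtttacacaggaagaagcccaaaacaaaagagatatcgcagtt
rps1801 (chrII:3620464-3620663, minus strand): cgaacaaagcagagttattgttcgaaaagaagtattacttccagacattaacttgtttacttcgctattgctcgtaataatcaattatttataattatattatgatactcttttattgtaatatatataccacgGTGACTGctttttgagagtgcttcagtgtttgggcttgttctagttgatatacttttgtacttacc
rps1802 (chrIII:1033482-1033681, minus strand): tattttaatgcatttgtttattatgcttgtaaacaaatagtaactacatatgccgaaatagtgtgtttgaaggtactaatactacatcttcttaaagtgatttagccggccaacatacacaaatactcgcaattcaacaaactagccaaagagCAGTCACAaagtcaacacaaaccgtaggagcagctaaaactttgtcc
rpl3402 (chrIII:1321148-1321347, plus strand): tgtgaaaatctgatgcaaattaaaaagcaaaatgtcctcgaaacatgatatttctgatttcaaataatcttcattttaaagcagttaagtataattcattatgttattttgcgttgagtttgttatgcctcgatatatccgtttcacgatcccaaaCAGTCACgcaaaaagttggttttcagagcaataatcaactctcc
rpl3401 (chrI:4093799-4093998, minus strand): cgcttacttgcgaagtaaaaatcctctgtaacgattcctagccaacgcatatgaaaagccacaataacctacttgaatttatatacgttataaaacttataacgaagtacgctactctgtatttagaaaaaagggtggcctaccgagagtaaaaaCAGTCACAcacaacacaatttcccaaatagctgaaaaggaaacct
rpl1603 (chrII:3443054-3443253, plus strand): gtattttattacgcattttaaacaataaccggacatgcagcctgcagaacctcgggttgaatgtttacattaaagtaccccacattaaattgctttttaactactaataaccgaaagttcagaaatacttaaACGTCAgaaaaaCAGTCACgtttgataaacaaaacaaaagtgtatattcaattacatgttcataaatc
rpl1602 (chrI:4097126-4097325, plus strand): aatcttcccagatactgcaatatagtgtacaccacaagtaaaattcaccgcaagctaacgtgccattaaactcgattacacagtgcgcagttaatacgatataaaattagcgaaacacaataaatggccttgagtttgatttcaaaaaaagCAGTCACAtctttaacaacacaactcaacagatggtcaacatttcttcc
rps1201 (chrIII:552974-553173, plus strand): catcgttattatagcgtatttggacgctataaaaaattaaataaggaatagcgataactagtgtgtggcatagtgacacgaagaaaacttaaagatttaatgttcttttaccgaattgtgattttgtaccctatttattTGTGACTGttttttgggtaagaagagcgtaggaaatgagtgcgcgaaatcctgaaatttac
rps1202 (chrII:499045-499244, minus strand): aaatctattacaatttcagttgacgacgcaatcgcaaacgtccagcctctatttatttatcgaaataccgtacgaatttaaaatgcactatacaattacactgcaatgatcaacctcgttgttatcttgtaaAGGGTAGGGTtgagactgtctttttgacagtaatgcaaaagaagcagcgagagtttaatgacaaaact
The major copies rps1402, rps1802, rpl3401 and rpl1602 each hold a full HomolD, and rps1402 holds it 2 times in opposite directions. The minor copies rps1801, rpl3402 and rpl1603 hold its first 7 letters but not the eighth. rps1401 holds HomolE and neither form of HomolD in these 200 bases. Of the S12 pair, rps1201 holds HomolD and rps1202 holds HomolE.

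Across the set, these elements were common and stood at nearly the same place. Between 250 bases before and 50 bases after the transcript start, on both strands, the exact HomolD letters CAGTCACA were found in 83 of the 129 genes (64.3%), against 2.68% of 5112 protein-coding genes. HomolE was found in 40 genes (31.0%, against 1.25%), and 23 genes held both, 60 only HomolD, 17 only HomolE and 29 neither. The shorter CAGTCAC, which every HomolD match contains, was found in 119 genes (92.2%, against 4.71%). The first base of HomolD lay at a median of -51 from the transcript start (quartiles -57 and -47), and that of HomolE at -70. The share over all protein-coding genes includes the ribosomal protein genes themselves. The Atf1 and Pcr1 core TGACGT was found in 3 of the 129 genes (2.33%), against 5.91% of protein-coding genes. Among them were rpl1603 and rps1201, with differences of -1.08 and 1.17. The core of rpl1603 lies before the transcript start, as marked above, and that of rps1201 lies after it.

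Medians of level by promoter letters depended on the form searched. For genes with the exact HomolD letters the median was 3228 FPKM under the Atf1 label and 2316 FPKM under the vector label, and that of genes without them was 2591 FPKM under the Atf1 label and 2039 FPKM under the vector label. With the shorter CAGTCAC the medians were 3043 FPKM under the Atf1 label and 2228 FPKM under the vector label, and without it 2582 FPKM under the Atf1 label and 2336 FPKM under the vector label. The median difference was 0.39 with the exact letters and 0.29 without. Within the large subunit it was 0.36 with and 0.06 without, and within the small subunit 0.44 with and 0.50 without. In 18 of the 53 proteins with several genes every copy held it, in 3 none did, and in 32 only some did. Among those 32 the leading gene held it in 18 under the Atf1 label and in 19 under the vector label. A match of letters is not a bound site, and a gene without a match can hold a variant of the element.

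Genes that work with the ribosome were set beside its proteins. Of 11 ribosomal proteins whose symbols do not follow the rpl or rps pattern, 10 were found in the table, none was called, and their median difference was 0.34, with 7 above 0. The greatest differences among them were those of cpc2, the homologue of RACK1 on the small subunit, at 7055 FPKM under the Atf1 label and 2719 FPKM under the vector label (1.38), and of rpp101, a P1 stalk protein, at 1974 FPKM under the Atf1 label and 806 FPKM under the vector label (1.29). Another 4 such genes, added after their names were seen in the table, had a median of -0.13 with 1 above 0. All 7 translation elongation factor genes had differences above 0, with a median of 1.26, and none was called. eft201 and eft202, both for elongation factor 2, had 733 and 639 FPKM under the Atf1 label and 226 and 242 FPKM under the vector label. The p-value of eft201 in the authors' deposited table was 0.0146 (q = 0.381).

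The regulators had differences on both sides of 0. A list of TOR (target of rapamycin) pathway and S6 kinase genes held 15 symbols, with wat1 another name of pop3, and 13 genes were found. Of these 13, 6 had a difference above 0 and 7 below, the median was -0.07, and none was called. psk1, a kinase of ribosomal protein S6, had 73.9 FPKM under the Atf1 label and 39.4 FPKM under the vector label (0.89), and tsc1, an inhibitor of the pathway, had 9.39 FPKM under the Atf1 label and 15.6 FPKM under the vector label (-0.67). Of 6 genes listed as transcription factors of ribosomal protein genes, 2 were above 0 and 4 below, with a median of -0.43 and none called. tbp1, the TATA-binding protein, had 378 FPKM under the Atf1 label and 169 FPKM under the vector label (1.16). rrn7, which binds HomolD, had 3.01 FPKM under the Atf1 label and 6.45 FPKM under the vector label (-0.89).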

How the data were processed

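Reads were aligned with HISAT2 to the build ASM294v2 and compared with Cuffdiff, tools and build named without versions or settings in the submitters' processing notes. Per the file headers, the authors deposited FPKM with 1 pooled value per group and gene in 2 tables, identical in all 7092 genes, beside a p-value and a q-value per gene. No counts are in the files, so the depth of the libraries is unknown, and that limits the precision of every value in a way that cannot be stated. Columns of samples that could not be mapped numbered 0.

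Differences are log2(FPKM + 1), a scale that understates changes of low genes. No test was computed here. The limma fit per library, leaving out libraries and a replicate block, planned for values per library, were not run because each group has 1 pooled value. Ribosomal protein genes, gene lists and tests were chosen with earlier results of these data known. Genes named are, per subunit, the 4 highest and 4 lowest differences and the 3 highest mean levels, all genes of the 6 proteins with the widest spread between paralogues and the 6 with the greatest change of it, and 2 per further list. Some results that the rule covers are not reported here. Other named genes, such as those of L20, L23, L43 and S16, were chosen after their values were seen. Paralogues are genes of the same number and deposited protein name, and rpl8 (L8) was kept apart from rpl801, rpl802 and rpl803 (L2), with which its protein shares 27.5% of residues. Strands, introns, coding lengths and upstream bases came from the RefSeq annotation of ASM294v3, where all 129 genes matched by locus tag. Coordinates of the sequences are of that build. Positions of 128 of the 129 genes share an edge with the deposited table. Identities came from pairwise alignment with Biopython 1.88. Cuffdiff's locus holds several genes for 53 of the 129, whose values are uncertain. The calculation was tested on simulated data. The software was Python 3.11.15 with matplotlib 3.10.9, scipy 1.17.1, pandas 2.3.3 and numpy 2.4.6. As alternatives, the pseudocount was 0.1 or 5, the filter was dropped or set to a mean of 10 FPKM, and values were taken under 3 other scalings and over genes alone in their locus. Dropping paralogues of at least 95% coding identity, shares of protein-coding FPKM and the counts past 1.5-fold were added after seeing the data.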

Additional observations from a re-analysis of the deposited data

How the results depend on the processing

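No paired analysis was possible because each group has only 1 pooled value, and leaving out libraries was not run for the same reason. With equal totals the median difference was -0.31 over all genes, -0.36 for the large and -0.22 for the small subunit, with 35 genes above 0, 4 past 1.5-fold upward and 42 past 1.5-fold downward. With quantile normalization these values were -0.28, -0.40, -0.17, 32, 5 and 37. With median-of-ratios scaling the medians were 0.47, 0.42 and 0.56, and 4 genes were at least 1.5-fold lower. The median over all tested genes shifted by -0.61 under equal totals and 0.11 under median-of-ratios scaling. Of 35 named genes, the difference changed sign in 10 with equal totals, in 9 with quantile normalization and in 2 with median-of-ratios scaling. Over the 76 genes alone in their locus, by construction fewer, 57 were above 0, 20 were at least 1.5-fold higher and 4 lower. There the ratio of large to small medians was 0.744 under the Atf1 label and 0.961 under the vector label. Shares among genes alone in their locus were 43.6% under the Atf1 label and 54.7% under the vector label, the median spread of paralogues under the vector label was 0.87, and the leader was the same in 19 of 20 proteins. The cause of these moves, other than the number of genes, was not tested. The difference of rpl1603 was -0.93 with a pseudocount of 5, and the other pseudocount and filter settings moved no named gene's difference by more than 0.1. The authors' calls were taken as deposited under each scaling.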

Other observations

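Ribosomal protein genes were next to each other in 8 pairs, 4 of them divergent, 3 in tandem and 1 convergent, with 15 genes in all. The differences of the 2 genes of a pair were a median of 0.40 apart. The divergent pair rps2 and rps20, with 490 bases between them, had differences of 0.48 and -0.63. rps1602 and rpl13, with 102 bases between them, had differences of 0.67 and 0.80.

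RNAs annotated as antisense to ribosomal protein genes numbered 9 in the table and none was called. rpl102-antisense-1 stood at 118 FPKM under the Atf1 label and 55.0 FPKM under the vector label, while rpl102 itself, the minor gene for L1, stood at 263 FPKM under the Atf1 label and 215 FPKM under the vector label. The other 8 stood between 2.32 and 9.10 FPKM under the Atf1 label. The library kit keeps strand, per the labels' protocols. The use of strand in counting was not given in the sources used here, and reads of a gene and its antisense partner cannot be told apart without it.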
